A study of Homo sapiens with 10 samples.

Results

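EMP1, EMP2, EMP3 and PMP22 form the PMP22/EMP gene family and were followed in HCT116 cells with and without CD276. They were chosen by name: the 4 rows of the TPM table whose Ensembl identifiers carry these symbols, out of 58050 gene identifiers. The family was picked because the difference of EMP1 between the groups was already known. The group differences of its members are therefore given as a description, without a p-value. HCT116 is a human colorectal carcinoma line. HCT116-WT cells carried the genotype WT. In HCT116-CD276KO cells CD276, an immune checkpoint protein of the B7 family, had been edited with Cas9 and a guide RNA delivered as a protein-RNA complex, and the edited cells came from 1 single cell clone. All cells were grown in McCoy's 5A medium with serum and without further treatment. The labels do not say whether the HCT116-WT cells had received a scrambled guide. There were 10 libraries, from RNA of 5 cultures per genotype. Replicates of HCT116-CD276KO measure the spread between cultures of that clone, and the loss of CD276 and the choice of clone cannot be told apart.

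The PMP22/EMP proteins are small tetraspan membrane proteins with the fold of the claudins. PMP22 is best known from the compact myelin of Schwann cells, where too many or too few gene copies cause inherited neuropathies. It is also made in epithelia, where it has been found at cell junctions. EMP1 is an epithelial membrane protein that has been described as a marker of tumour cells able to seed relapse in colorectal cancer. EMP2 has been linked to the surface transport of integrins and to caveolin-1. EMP3 has been linked to receptor signalling in glioma.

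In HCT116-WT cells EMP1 was the most abundant of the 4 transcripts, and in HCT116-CD276KO cells EMP3 was. EMP1 stood at 216 ± 19.0 TPM (transcripts per 1000000 transcripts, SD, n = 5) in HCT116-WT cells and at 75.1 ± 11.4 TPM (SD, n = 5) in HCT116-CD276KO cells, or 34.8% of its level with CD276. In bulk RNA, fewer cells with the transcript and less of it per cell cannot be told apart. EMP2, EMP3 and PMP22 stood at 91.2%, 109% and 92.0% of their HCT116-WT means, and their values overlapped between the groups. TPM are divided by transcript length, so levels of different genes can be set side by side.

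The annotation places the genes on 4 different chromosomes of hg38. EMP1 (ENSG00000134531) lies on chromosome 12 from 13196723 to 13219941 on the plus strand. EMP2 (ENSG00000213853) lies on chromosome 16 from 10528422 to 10580632 on the minus strand. EMP3 (ENSG00000142227) lies on chromosome 19 from 48321509 to 48330553 on the plus strand. PMP22 (ENSG00000109099) lies on chromosome 17 from 15229773 to 15272292 on the minus strand. In its reference transcript each gene has 5 exons. The coding sequences are of similar size, with 157 codons in EMP1, 167 in EMP2, 163 in EMP3 and 160 in PMP22. The transcripts around them are not: EMP1 has 5913 bases, EMP2 5097, PMP22 1828 and EMP3 649. The coding sequence therefore makes up 7.97% of the EMP1 transcript and 75.3% of that of EMP3. Aligned end to end, the coding sequences shared between 55.4% of bases for EMP1 with EMP3 and 59.7% for EMP1 with EMP2. The longest stretch that any pair of the reference transcripts had in common was 24 bases, in EMP3 and PMP22, shorter than the reads of 51 bases. The pseudogene EMP2P1 was listed at 0 TPM in every library.

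The bases before the transcription start are shown because EMP1 differed between the groups while its relatives stayed close to their levels. Each sequence comes from the RefSeq promoter table of GRCh38.p14, read on the strand of the gene, at the start nearest to that of the reference transcript. It is cut where the first annotated exon begins. Capitals mark matches, on either strand, to TGAGTCA, the AP-1 motif, to GGAATG, a core of the TEAD motif, to GGGCGG, the SP1 motif, and to TATAAA, the TATA box. The windows are chr12:13196476-13196722 on the plus strand for EMP1, chr16:10580633-10580848 on the minus strand for EMP2, chr19:48325302-48325346 on the plus strand for EMP3 and chr17:15265327-15265576 on the minus strand for PMP22.
EMP1: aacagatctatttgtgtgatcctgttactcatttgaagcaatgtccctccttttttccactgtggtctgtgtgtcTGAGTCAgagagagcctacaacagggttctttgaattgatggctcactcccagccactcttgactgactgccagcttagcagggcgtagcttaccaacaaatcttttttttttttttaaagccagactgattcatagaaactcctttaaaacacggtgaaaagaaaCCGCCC
EMP2: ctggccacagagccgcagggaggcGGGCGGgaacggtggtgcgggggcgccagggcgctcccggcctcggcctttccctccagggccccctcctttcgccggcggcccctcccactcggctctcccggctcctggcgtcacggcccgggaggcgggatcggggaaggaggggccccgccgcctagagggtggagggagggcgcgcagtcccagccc
EMP3: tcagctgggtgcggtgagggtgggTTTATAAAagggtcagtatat
PMP22: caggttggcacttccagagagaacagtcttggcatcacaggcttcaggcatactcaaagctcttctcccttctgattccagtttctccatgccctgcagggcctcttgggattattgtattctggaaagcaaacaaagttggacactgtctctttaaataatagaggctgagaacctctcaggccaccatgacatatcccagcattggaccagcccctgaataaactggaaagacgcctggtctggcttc

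Of these windows only that of EMP1 held the AP-1 letters, from 175 to 169 bases before the start. Among the 35116 promoter windows of 250 bases in the table, 4.2% held that motif, 11.9% the TEAD letters, 42.6% the SP1 letters and 10.7% the TATA letters. No window of the 4 genes held the TEAD letters. In the EMP3 window the TATA letters matched on both strands in overlapping positions, 226 to 219 bases before the start. It also held the SP1 letters, 11 to 6 bases before the start. They lie in the part not printed, as only 45 bases of the EMP3 window precede an exon. Over the full 250 bases the EMP1 window had 42.4% G and C and 3 CpG pairs, against medians of 58.0% and 11 over all windows. The EMP2 window stood at the other end, with 77.2% G and C and 27 CpG pairs. The PMP22 window had a single CpG pair. EMP3 and PMP22 have further starts in the table, none of whose windows held the AP-1 or TEAD letters, and TPM per gene do not show which start was used.

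The targeted gene went with the labels. CD276 stood at 45.3 ± 6.17 TPM in HCT116-WT and 5.46 ± 1.21 TPM in HCT116-CD276KO cells (SD, n = 5), which is -2.85 on the log2 scale (limma, adjusted p-value 1.39e-07). Of 8 colorectal epithelial markers 6 reached a mean of 1 TPM, and their sum ran from 4180 to 4950 TPM in HCT116-WT and from 3320 to 3780 TPM in HCT116-CD276KO libraries. CDH1, the gene of E-cadherin, fell by 1.07 on the log2 scale, KRT8 by 0.42, KRT18 by 0.39, EPCAM by 0.35 and KRT19 by 0.29. The EPCAM and KRT19 calls each held in 5 of 17 alternatives, and those of KRT8 and KRT18 were lost after median-of-ratios scaling, with adjusted p-values of 0.0643 and 0.0523. CDX2, a factor of intestinal identity, stood at 8.91 and 9.27 TPM (log2 fold change 0.07, adjusted p-value 0.786). VIL1 was near 0 and CDX1 at 0. The part of this shift in the results below was not tested. Endothelial markers summed to at most 0.65 TPM. Fibroblast markers, led by COL1A1, summed to 6.02 to 8.99 TPM in HCT116-WT and 4.54 to 7.51 TPM in HCT116-CD276KO libraries, and leukocyte markers, led by CD68, to at most 15.0 TPM in either group. Schwann cell and myelin markers, led by MBP, summed to 25.7 to 32.7 and 16.3 to 28.7 TPM, and SOX10 was listed at 0 in every library. The deviations of the libraries followed transcript length, with Spearman correlations over genes from -0.52 to 0.43.

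EMP1 was measured in HCT116-WT replicates 1 to 5 at 237.45, 210.22, 189.52, 210.66 and 231.06 TPM. In the HCT116-CD276KO replicates, in the same order, it had 82.75, 61.7, 65.71, 76.31 and 89.05 TPM. Every HCT116-CD276KO library lay below every HCT116-WT library, and the groups were separated by more than the range within either. The mean level was 2.87-fold lower, a loss of 141 TPM. On the log2(TPM + 1) scale, used for all fold changes here, the difference was -1.52 (standard error 0.10, 95% interval -1.75 to -1.29). Ordered by the loss in TPM, EMP1 was number 28 of the 13581 genes tested, those averaging 1 TPM or more, and ordered by fold change number 38 from the lowest. By level it went from rank 724 in HCT116-WT to rank 2111 in HCT116-CD276KO cells.

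EMP3 was measured in HCT116-WT replicates 1 to 5 at 118.39, 117.11, 125.69, 117.19 and 129.21 TPM. The corresponding HCT116-CD276KO values were 122.09, 146.28, 131.2, 148.19 and 115.76 TPM. Replicates 2 to 4 of HCT116-CD276KO were above all HCT116-WT libraries, replicate 1 was within their range and replicate 5 was below them, so that the groups overlapped. The means were 122 ± 5.58 and 133 ± 14.4 TPM (SD, n = 5), with a log2 fold change of 0.12 (95% interval -0.05 to 0.29). The coefficient of variation was 4.59% in HCT116-WT and 10.8% in HCT116-CD276KO cells.

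PMP22 was measured in HCT116-WT replicates 1 to 5 at 46.41, 41.22, 50.33, 47.88 and 42.18 TPM. In the HCT116-CD276KO replicates, in the same order, it had 39.7, 47.74, 37.66, 43.39 and 41.34 TPM. The groups overlapped over most of their range, with the highest value in HCT116-WT replicate 3 and the lowest in HCT116-CD276KO replicate 3. The means were 45.6 ± 3.84 and 42.0 ± 3.85 TPM (SD, n = 5), with a log2 fold change of -0.12 (95% interval -0.29 to 0.06). The gene of the myelin protein was thus present at a moderate level in these epithelial cells, higher than 74.3% of the genes tested in HCT116-WT cells, while SOX10, a factor that drives it in Schwann cells, was listed at 0.

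EMP2 was measured in HCT116-WT replicates 1 to 5 at 17.41, 17.34, 18.38, 17.58 and 18.98 TPM. The corresponding HCT116-CD276KO values were 17.75, 14.88, 15.19, 17.48 and 16.52 TPM. Of the HCT116-CD276KO libraries replicates 1 and 4 lay within the HCT116-WT range and the others below it. The means were 17.9 ± 0.715 and 16.4 ± 1.3 TPM (SD, n = 5), with a log2 fold change of -0.13 (95% interval -0.28 to 0.02). Under the reported setting the intervals of EMP2, EMP3 and PMP22 all lay within a change of 0.3 in either direction on the log2 scale. The median of all genes tested was -0.09. After median-of-ratios scaling EMP3 stood at 0.22 (standard error 0.10 from limma), and the bound of 0.3 does not hold for it there. After quantile normalization EMP3 stood at 0.18 (standard error 0.08). The bound is given for the reported setting only and was not taken over the other alternatives.

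**Figure D1:**
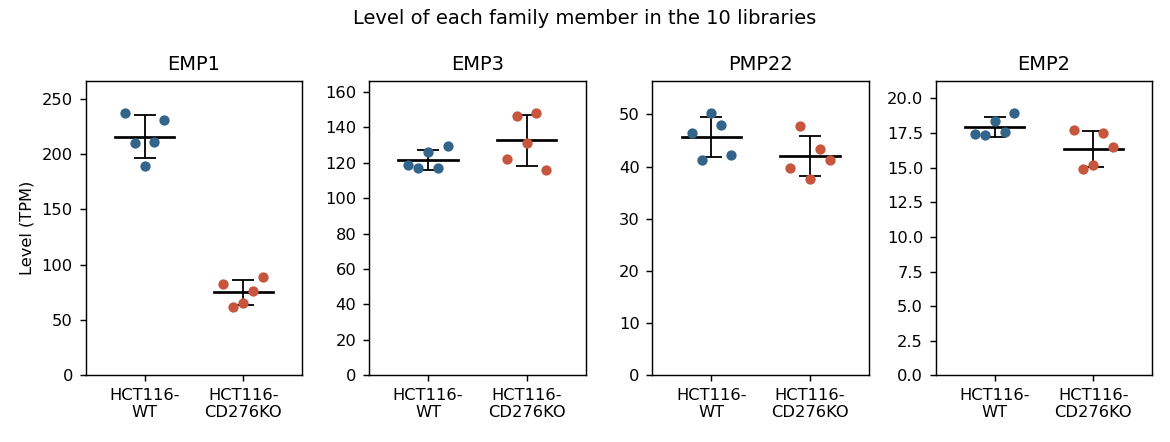
Level in TPM of EMP1, EMP3, PMP22 and EMP2 in each library, with 1 point per library, a line at the group mean and bars of 1 SD (n = 5), each panel on its own linear axis from 0. The EMP1 points of HCT116-CD276KO (61.7 to 89.05 TPM) lie far below those of HCT116-WT (189.52 to 237.45 TPM), and in the other panels the groups overlap.

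In the limma fit over all genes 1 of the 4, EMP1, was past both thresholds, 0.05 for the adjusted p-value and 2-fold for the change. Of all 13581 genes tested 0.486% were past both in either direction, 0.464% lower and 0.0221% higher. Groups that do not overlap were found for EMP1 alone of the 4, and for 7.61% of all genes. As the family was chosen for EMP1, nothing is read from these counts.

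The order of the 4 transcripts changed at the top and stayed the same below it. In all 5 HCT116-WT libraries the order was EMP1, EMP3, PMP22 and EMP2. In all 5 HCT116-CD276KO libraries it was EMP3, EMP1, PMP22 and EMP2. Neighbours in these orders did not overlap within a group: in HCT116-CD276KO cells the highest EMP1 value was 89.05 and the lowest EMP3 value 115.76 TPM, and the highest PMP22 value, 47.74 TPM, was below the lowest EMP1 value. The ratio of EMP1 to EMP3 lay between 1.51 and 2.01 in HCT116-WT and between 0.422 and 0.769 in HCT116-CD276KO libraries. EMP1 went from 4.77 ± 0.684 to 1.80 ± 0.341 times the level of PMP22 (SD, n = 5). Against EMP2 it went from between 10.3 and 13.6 times to between 4.15 and 5.39 times. A ratio within a library does not depend on how the libraries are scaled to each other. A trend with transcript length does not cancel in it, and EMP1 is longer than EMP3 and PMP22. With the length and GC trends removed, EMP1 and EMP3 averaged 7.66 and 6.95 on the log2(TPM + 1) scale in HCT116-WT cells. In HCT116-CD276KO cells they then averaged 6.33 and 7.04. The removal acts on the deviation of each library from the mean of the gene over all libraries. A length or GC trend shared by all libraries therefore stays in these levels.

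The 4 transcripts together summed to 401 ± 18.3 TPM in HCT116-WT and 266 ± 13.1 TPM in HCT116-CD276KO cells (SD, n = 5). EMP1 supplied 53.8% ± 2.68 of the sum in HCT116-WT and 28.2% ± 4.43 in HCT116-CD276KO cells. The share of EMP3 went from 30.3% ± 1.63 to 49.8% ± 4.29, that of PMP22 from 11.4% ± 1.23 to 15.7% ± 1.07 and that of EMP2 from 4.48% ± 0.227 to 6.15% ± 0.456 (SD, n = 5). Without EMP1 the other members summed to between 176 and 194 TPM in HCT116-WT and between 174 and 209 TPM in HCT116-CD276KO libraries. The ranges of this remainder overlapped, unlike those of the full sum.

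**Figure D2:**
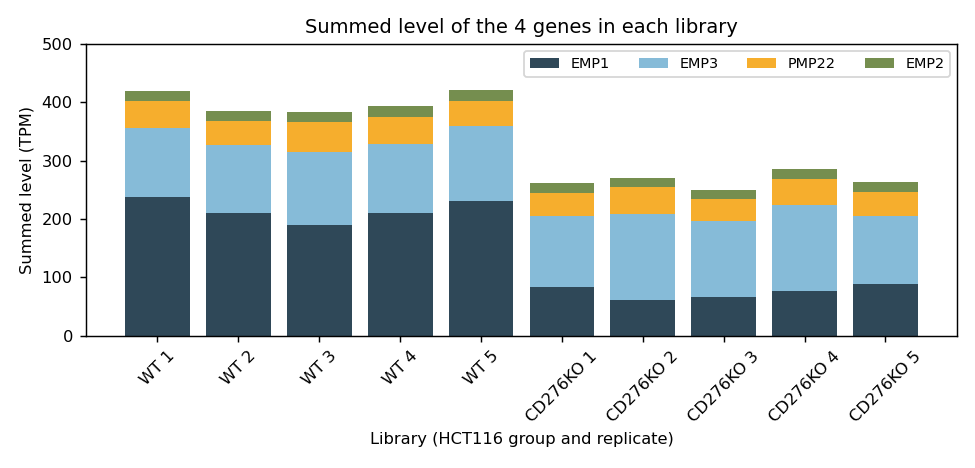
Summed level in TPM of EMP1, EMP3, PMP22 and EMP2 in each of the 10 libraries, stacked by gene on a linear axis from 0. The EMP1 segment at the bottom is the part that shrinks in the HCT116-CD276KO libraries, and the other segments together stay between 174 and 209 TPM.

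Within the groups the EMP1 values largely moved with the length trend of the libraries. HCT116-CD276KO replicates 2 and 3, with the lowest EMP1 values, had Spearman correlations with transcript length of -0.52 and -0.49, and replicates 1 and 5, with the highest, had 0.26 and 0.32. In HCT116-WT cells replicate 3, with the lowest EMP1 value, had the lowest correlation, -0.09. The match was looser there, as HCT116-WT replicates 2 and 4 had correlations of 0.39 and 0.05 but nearly the same EMP1 level, 210.22 and 210.66 TPM. EMP1 is a long transcript. Once the trends with length and GC content had been taken out of each library, the SD of EMP1 within the groups went from 0.179 to 0.0462 on the log2 scale and its difference between the groups from -1.52 to -1.33. The gap between the lowest HCT116-WT and the highest HCT116-CD276KO value went from 1.08 to 1.18. For EMP2, also a long transcript, the same step turned the difference from -0.13 to 0.05, so that no direction can be given for EMP2. Scaling the libraries by median-of-ratios factors brought the median of all genes from -0.09 to 0.00. It left EMP1 at -1.42 and EMP3 at 0.22 and brought EMP2 to -0.03 and PMP22 to -0.02. EMP1 lay below -1.3 under each of the 18 alternatives run, and EMP3 between 0.08 and 0.22.

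The genes around EMP1 on chromosome 12 were set beside it. Wholly within 500 kb of EMP1 the table holds 25 further genes, of which 7 were tested. Genes that cross the edge of this window were not counted. All 7 lie on the side before the EMP1 start. Of these GPRC5A alone passed an adjusted p-value of 0.05, which 4.09% of all genes did with a lower and 0.781% with a higher level. GPRC5A, an orphan receptor induced by retinoic acid, lies 279 kb from EMP1, from 12891559 to 12917937. Its levels were 214.72, 217.75, 219.32, 196.79 and 229.58 TPM in the HCT116-WT replicates. Those of the HCT116-CD276KO replicates were 175.64, 114.19, 102.39, 153.33 and 171.83 TPM, in the order 1 to 5. It fell by 0.62 on the log2 scale (standard error 0.14, adjusted p-value 0.0297 from limma) without overlap between the groups (p = 0.00794 by a two-sided exact permutation test, the lowest value possible with these group sizes). Leaving out 1 library ended this call in 7 of 10 cases: without HCT116-WT replicate 1, 2, 3, 4 or 5 and without HCT116-CD276KO replicate 2 or 4. With the length and GC trends removed the change was -0.40. Its adjusted p-value over all alternatives ran from 0.00491 to 0.0826.

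The nearest tested neighbour of EMP1, FAM234B at a distance of 54.2 kb, kept 88.8% of its HCT116-WT level (log2 fold change -0.16, 95% interval -0.40 to 0.07). HEBP1, a haem-binding protein gene, stood at -0.13, the RNA helicase gene DDX47 at -0.17, APOLD1 at -0.16, GPRC5D-AS1 at -0.09 and the pseudogene RPL13AP20 at 0.07. None of these 6 passed the test. GSG1, a relative of the family from the same claudin fold that lies 93.0 kb from EMP1, averaged 0.034 TPM in HCT116-WT cells and was not tested.

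The more distant relatives outside the claudins were mostly silent. Of 18 listed genes with the PMP22/claudin fold 3 were tested, where 13581 of all 58050 gene identifiers were. Of these 3, 0 passed at an adjusted p-value of 0.05 in limma, against 4.87% of all genes tested in either direction. With 3 genes, 0 is close to that share, and nothing is read from it. Without adjustment 1, PERP, was under 0.05. CLDND1 stood at 343 TPM in both groups, with a log2 fold change of -0.01 (95% interval -0.23 to 0.22). PERP, a p53 target found in desmosomes, stood at 62.3 and 53.9 TPM (log2 fold change -0.20, 95% interval -0.39 to -0.02, adjusted p-value 0.195). CLDND2 stood at 2.05 and 2.10 TPM. The 8 CACNG genes, which encode subunits of calcium channels and glutamate receptors, and the eye lens gene LIM2 stayed under a mean of 0.1 TPM, and TMEM47 was listed at 0.

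Proteins that family members have been described to bind, or that guide their transport, formed a list of 20 genes, of which 18 were tested. An adjusted p-value under 0.05 was found for 1, which was lower, and for 0 that were higher, against 4.87% of all genes tested in either direction. The median log2 fold change of the 18 was -0.25, against -0.09 over all genes tested. The gene that passed was ERBB2, a receptor tyrosine kinase. Its HCT116-WT replicates 1 to 5 gave 56.95, 54.9, 59.83, 54.31 and 53.26 TPM. Its HCT116-CD276KO replicates 1 to 5 gave 47.89, 45.07, 40.33, 46.53 and 45.77 TPM. It fell by 0.30 on the log2 scale (standard error 0.06, adjusted p-value 0.0196 from limma), with no overlap. The change was -0.15 with the length and GC trends removed. After median-of-ratios scaling it was -0.21 with an adjusted p-value of 0.0639, and the call was also lost after quantile normalization, with the replicate block and without HCT116-WT replicate 1. Over all alternatives its adjusted p-value ran from 0.0201 to 0.0802.

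The most abundant partners did not pass. CANX, the gene of calnexin, a chaperone that holds PMP22 in the endoplasmic reticulum, stood at 834 and 724 TPM (log2 fold change -0.22, 95% interval -0.48 to 0.04). CAV1, the gene of caveolin-1, stood at 489 and 483 TPM (-0.03, 95% interval -0.21 to 0.16). ITGB1, the integrin β1 gene, stood at 464 and 391 TPM (-0.26, adjusted p-value 0.222). P2RX7, a channel reported to bind the EMP proteins, averaged 0.584 TPM in HCT116-WT cells and was not tested. Named after their values were seen, EGFR at -0.79, ITGA6 at -0.66 and OCLN at -0.52, the genes of the EGF receptor, of integrin α6 and of occludin, had the lowest log2 fold changes of the list. Their adjusted p-values were 0.0572, 0.0528 and 0.0579. Once the length and GC trends were removed, 6 genes of the list passed: ITGA6, OCLN, TGFBR2, EGFR, ERBB2 and CD44. Under that setting 1299 of all 13472 genes fitted passed, against 662 of 13581 as reported. The changes of all 6 were smaller there, with EGFR at -0.53, ITGA6 at -0.47, OCLN at -0.35 and CD44 at -0.17.

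Of 10 transcription factors described for PMP22 or the EMP genes 7 were tested, 1 of which, TEAD4, passed with a lower level and 0 with a higher one, against 4.09% and 0.781% of all genes tested. TEAD4, a DNA-binding partner of YAP, had 38.9, 38.41, 38.99, 35.36 and 37.45 TPM in HCT116-WT replicates 1 to 5. The HCT116-CD276KO replicates 1 to 5 had 26.14, 27.07, 25.23, 30.59 and 30.1 TPM. The groups did not overlap, and TEAD4 fell by 0.43 on the log2 scale (standard error 0.07, adjusted p-value 0.00434 from limma). It stayed under 0.05 in all 17 alternatives fitted, with adjusted p-values from 0.00434 to 0.0389. YAP1, the co-activator, stood at 54.1 and 45.2 TPM (log2 fold change -0.26, adjusted p-value 0.222) and its relative WWTR1 at 53.2 and 49.1 TPM (-0.12, adjusted p-value 0.507). MYC stood at 253 and 239 TPM (-0.08, adjusted p-value 0.539). The median of the 7 was -0.26, against -0.09 over all genes tested. EGR2, which drives PMP22 in Schwann cells beside SOX10, averaged 0.712 TPM in HCT116-WT cells and was not tested.

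Genes known from the invasive front of colorectal tumours, where EMP1 has also been described, formed a list of 10. Of the 9 tested 4 had an adjusted p-value under 0.05, all lower, none by 2-fold, against 4.09% of all genes that were lower, and the median was -0.48 against -0.09 over all genes. LAMB3, which encodes a laminin chain of epithelial basement membranes, fell by 0.77 on the log2 scale (standard error 0.13, adjusted p-value 0.00513 from limma). LAMB3 ranged from 22.05 to 25.22 TPM in HCT116-WT and from 10.98 to 18.14 TPM in HCT116-CD276KO libraries. ANXA1, a phospholipid-binding annexin, ranged from 444.32 to 534.02 TPM and from 320.94 to 362.93 TPM, and fell by 0.53 (adjusted p-value 0.000475). PLAUR, the urokinase receptor gene, ranged from 66.07 to 80.59 TPM and from 49.24 to 54.89 TPM, and fell by 0.48 (adjusted p-value 0.00129). LAMB3, ANXA1 and PLAUR passed in all 17 alternatives fitted. The list was drawn up with earlier results of these data known, among them the change of PLAUR. Its count and median are therefore a description.

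Neither of the following genes of that list passed under the reported setting. ITGA2, the integrin α2 gene, stood at 20.6 and 12.7 TPM (log2 fold change -0.70, adjusted p-value 0.0868). ITGA2 passed in 2 of 17 alternatives. These were without HCT116-CD276KO replicate 1 and with the length and GC trends removed (-0.50, adjusted p-value 0.019 from limma). PLAU, the gene of urokinase, stood at 60.9 and 56.4 TPM (-0.12, adjusted p-value 0.497) and passed in 0 of 17.

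The genes with the profile most like that of EMP1 were found by the root mean square difference of log2(TPM + 1) over the 10 libraries, each profile centred on its own mean. The 5 nearest of all genes tested were PKIB at 0.124, EHF at 0.128, SLC1A3 at 0.140, UCA1 at 0.145 and KLF4 at 0.150 log2 units. PKIB, an inhibitor of protein kinase A, ranged from 41.83 to 56.35 TPM in HCT116-WT and from 13.22 to 19.52 TPM in HCT116-CD276KO libraries. EHF and KLF4 encode epithelial transcription factors, SLC1A3 a glutamate transporter, and UCA1 is a long non-coding RNA. EHF averaged 67.8 and 22.8 TPM, SLC1A3 14.8 and 4.94 TPM, UCA1 51.9 and 19.8 TPM and KLF4 29.7 and 11.2 TPM. As the measure rests on the same libraries and mostly on the gap between the groups, it is a description.

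The other members had flat profiles, so their nearest genes were flat too. PDIA5, SEC22C and NATD1 were nearest to EMP2, at 0.0320 to 0.0462 log2 units. MPC2, HEIH and SSR2 were nearest to EMP3, at 0.0767 to 0.0781. MACROH2A2, BOK and IMPDH1 were nearest to PMP22, at 0.0534 to 0.0555. The log2 fold changes of these 9 genes lay between -0.16 and 0.11, and none passed an adjusted p-value of 0.05.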

How the data were processed

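RNA of 5 HCT116-WT and 5 HCT116-CD276KO cultures was sequenced from polyadenylated, strand-specific libraries as single reads. According to the methods and the submitters' processing notes, reads were mapped to hg38 with STAR 2.5.2b and genes of Ensembl 86 (GENCODE 25) were quantified with RSEM 1.3.0 and featureCounts 1.5.1. The authors deposited TPM, which are divided by transcript length and set to 1 common total. Which program gave the TPM is not given in the sources used here. TPM keep no depth, so no counting interval is given, and precision comes from the 5 cultures. The study tested counts with limma/voom.

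Here 13581 genes averaging 1 TPM or more were compared on log2(TPM + 1) with limma 3.58.1 in R 4.3.3 (trended empirical Bayes, Benjamini-Hochberg over all genes). The pseudocount understates changes of low genes. Single listed genes were also tested with a two-sided exact permutation test in scipy 1.17.1. The fit was also run on simulated data. The simulated noise was independent for each gene and library, without shared length trends, so that run cannot tell how such trends affect the calls. Positions, transcript lengths and coding sequences came from GENCODE 44 on hg38, and coding sequences were aligned globally with biopython 1.88. Python 3.11.15, numpy 2.4.6, pandas 2.3.3 and matplotlib 3.10.9 were used.

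The members and lists were chosen with earlier results of these data known. The genes named were the 4 members, CD276, every listed gene that passed at an adjusted p-value of 0.05, up to 3 more per list with the highest level, tested genes within 500 kb of EMP1, and the 5 (EMP1) or 3 (other members) genes with the closest profiles. Other names are said to have been added later. Of the invasive-front list 2 genes count in the totals and are not reported here. Alternatives were a pseudocount of 0.1, no filter, a filter at 5 TPM, median-of-ratios scaling, quantile normalization, removal of length and GC trends by local regression (share 0.3 of the genes, 13472 genes with both values), the replicate number as a block, each library left out, and log2 ratios of mean TPM. Same-numbered cultures correlated between -0.18 and 0.12 in their deviations, so the numbers were not taken as pairs.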

Additional observations from a re-analysis of the deposited data

Results flagged for a closer look

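Over 11 genes, 22 groups of 5 values were looked at for a library standing apart, by the distance of the highest or lowest library from its nearest neighbour as a share of the whole spread. The limit of 0.71, which chance passes in about 1 of 20 groups, was passed by 2 groups. For LAMB3 the lowest HCT116-WT library, replicate 4, had 22.05 TPM and the next one 24.44 TPM, a share of 0.754. Leaving this library out moved its log2 fold change from -0.77 to -0.80. For PLAUR the highest HCT116-CD276KO library, replicate 4, had 54.89 TPM and the next one 50.75 TPM, a share of 0.733. Leaving this library out moved its log2 fold change from -0.48 to -0.51. No group of EMP1, EMP2, EMP3 or PMP22 passed the limit.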

How the results depend on the processing

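No alternative turned the direction of EMP1 or CD276. With 1 library left out, the log2 fold change of EMP1 lay between -1.58 and -1.45, that of EMP2 between -0.16 and -0.10, that of EMP3 between 0.08 and 0.17 and that of PMP22 between -0.16 and -0.08. Once length and GC trends were removed it was -1.33 for EMP1 and 0.05 for EMP2. EMP2 stood at -0.03 after median-of-ratios scaling and -0.00067 after quantile normalization. The log2 ratio of the summed levels was -0.59, and -0.49 after median-of-ratios scaling and -0.51 with the trends removed. Past both thresholds there were 66 genes, but 112 when the pseudocount was 0.1, which enlarges changes at low TPM, 40 with the filter at 5 TPM, which leaves fewer genes, and between 63 and 77 with 1 library left out. With an adjusted p-value under 0.05 there were 662 genes, 1299 with the trends removed, 378 when the replicate block was fitted and between 340 and 886 with 1 library left out, and the cause was not tested. Leaving out HCT116-WT replicate 1 gave 343, replicate 2 370, replicate 4 422 and replicate 5 340 genes, and leaving out HCT116-CD276KO replicate 3 gave 404 and replicate 4 381. Without HCT116-CD276KO replicate 1 there were 886 genes, and without HCT116-CD276KO replicate 5 there were 718. Of the binding partners 1 passed, 2 with the filter at 5 TPM, 0 after median-of-ratios scaling, 6 with the trends removed and between 0 and 5 with 1 library left out (0 without HCT116-WT replicate 1, 2 without HCT116-WT replicate 3, 5 without HCT116-CD276KO replicate 1 and 4 without HCT116-CD276KO replicate 5). Same-numbered cultures did not deviate together and 1 of 5 numbers had its own number as best partner, so the block rests on a shared number only, and under it EMP1 kept -1.52. The depth of the libraries is unknown from TPM.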
